A study of Mus musculus with 33 samples.

Results

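Plasma cells are the antibody-secreting end stage of the B cell lineage, and 10 genes of the programme that makes and maintains them were followed in lymphoid organs of mice given nicotinamide (NAM, a form of vitamin B3). Their rows were found by gene symbol, the list itself having been drawn up with earlier results of these data known, and every gene was found, in 10 of the 56414 rows of the table. Prdm1, Irf4, Xbp1 and Creb3l2 encode transcription factors of B cell differentiation and secretion, Mzb1 and Derl3 proteins of the endoplasmic reticulum, Jchain and Ighm parts of secreted antibody, and Sdc1 and Tnfrsf17 surface proteins. In this programme the repressor made from Prdm1 ends B cell identity, Irf4 acts upstream of it, and Xbp1 drives the folding and export machinery that large-scale antibody synthesis needs. Plasma cells arise in spleen and lymph node, where they are few but carry very many immunoglobulin transcripts, so a small number of cells can set the level of such transcripts in a piece of tissue. In these bulk samples a change in the number of plasma cells and a change in the RNA that each of them carries cannot be told apart.

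The animals were tumour-free C57Bl/6 mice that drank water with 0.5% NAM for 1, 3 or 14 days, or were left untreated. The labels give replacement of the NAM every 7 days, and the study's methods give more frequent changes of drinking solutions. Polyadenylated RNA of spleen and lymph node gave 33 libraries. Of these, 20 are labelled spleen, with 5 per group. The 13 labelled lymph node comprise 3 without NAM, 2 of 1 day, 4 of 3 days and 4 of 14 days. The labels give no age or sex, and do not say which lymph nodes were taken, whether animals were pooled or whether an animal gave both organs. The study describes a single experiment on mice, and the labels do not tie each library to an animal of its own, so p-values measure the spread between these libraries. The tissue labels went against most of their defining markers. Of 5 genes of lymph node high endothelium, Glycam1, Chst4, Fut7 and Ccl21a were higher in every library labelled spleen than in any labelled lymph node, and Madcam1 went the other way, at 137 to 402 and 577 to 956. Glycam1, which marks the high endothelium of nodes, had normalised read counts of at least 108167 in all 20 libraries labelled spleen and of at most 12.4 in the 13 labelled lymph node. Nkx2-5, a factor of splenic stroma, was at 0 in all libraries labelled spleen and at 167 to 267 in those labelled lymph node. All 7 genes listed for splenic red pulp and stroma were higher in every library labelled lymph node than in any labelled spleen. Under the lymph node label Tlx1 stood at 351 to 573, Nkx2-3 at 458 to 640 and Spic at 6117 to 10491. Under the spleen label they stood at 0 to 4.07, 0 to 3.13 and 774 to 1295. The organs are therefore named by label throughout. Whole reads numbered 18325061 to 54830743 per library under the spleen label and 30424968 to 46733974 under the lymph node label.

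All 10 genes had reads in all 33 libraries and passed the filter on low values (a mean normalised read count of at least 10). The lowest read number was 16, for Tnfrsf17 in a library labelled spleen, so the scarcest transcripts carry the largest counting error. In mm10 coordinates the rows are Prdm1 at chr10:44437175-44528502, Irf4 at chr13:30749235-30766927, Xbp1 at chr11:5520641-5525992, Creb3l2 at chr6:37331021-37442148, Derl3 at chr10:75893398-75895941, Jchain at chr5:88519810-88527897, Sdc1 at chr12:8771354-8793688 and Tnfrsf17 at chr16:11313809-11320072, each a protein-coding gene counted over its exons. The row of Mzb1, at chr18:35647266-35649369, shares exonic bases with Spata24 on the same strand, and reads of the pair cannot be separated. The row that holds Ighm is not a gene but the merged heavy chain locus, at chr12:112896981-116000321. It carries 20 symbols and spans 288 annotated genes. Among them are 8 constant region genes (Igha, Ighe, Ighg2c, Ighg2b, Ighg1, Ighg3, Ighd and Ighm) and 113 variable segments, so the level of IgM alone, or of Igha, could not be read. The part of the other genes over the row could not be read either. It is called the heavy chain locus row here. Heavy chain transcripts are also made by B cells that are not plasma cells.

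Promoters were read from RefSeq (GRCm38.p6, the build of mm10), from 250 bases before to 50 bases after the start site, and matched 8 of the 10 genes. They were searched on both strands for 5 motifs. CCACGT, the core of the unfolded protein response element, stood in 8.31% of all 32851 promoters of that length searched, and the octamer ATGCAAAT of immunoglobulin promoters in 1.74%. TGACGT of the cAMP response element stood in 7.51%. The endoplasmic reticulum stress element, CCAAT and CCACG with 9 bases of any kind between them, stood in 0.119%. The interferon regulatory factor element, GAAA and GAAA with 2 bases of any kind between them, stood in 3.44%. Derl3 held CCACGT at -169 and, without overlap, the stress element on the reverse strand at -156, positions being counted from the start site. Tnfrsf17 held the interferon regulatory factor element at -101 and Creb3l2 held TGACGT at -196, and none of the motifs was found in the windows of Prdm1, Irf4, Xbp1, Jchain or Sdc1. The promoters of Derl3, Tnfrsf17 and Jchain are shown because these genes varied together across libraries, and that of Creb3l2 because it differed between the labels in the opposite direction. Capitals mark the motif matches.

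Derl3 promoter, chr10:75893148-75893447, plus strand: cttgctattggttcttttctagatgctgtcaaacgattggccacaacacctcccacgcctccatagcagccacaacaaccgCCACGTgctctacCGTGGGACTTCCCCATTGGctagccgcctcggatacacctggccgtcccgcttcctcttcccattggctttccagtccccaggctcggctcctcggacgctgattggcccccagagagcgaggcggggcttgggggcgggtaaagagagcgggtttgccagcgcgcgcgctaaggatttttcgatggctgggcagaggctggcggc

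Tnfrsf17 promoter, chr16:11313559-11313858, plus strand: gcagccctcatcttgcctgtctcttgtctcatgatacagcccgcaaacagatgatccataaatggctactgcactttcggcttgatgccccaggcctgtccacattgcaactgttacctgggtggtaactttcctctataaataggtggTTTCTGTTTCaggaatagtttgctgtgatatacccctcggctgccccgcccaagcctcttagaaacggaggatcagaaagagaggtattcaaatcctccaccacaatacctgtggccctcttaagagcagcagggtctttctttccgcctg

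Creb3l2 promoter, chr6:37442099-37442398, minus strand: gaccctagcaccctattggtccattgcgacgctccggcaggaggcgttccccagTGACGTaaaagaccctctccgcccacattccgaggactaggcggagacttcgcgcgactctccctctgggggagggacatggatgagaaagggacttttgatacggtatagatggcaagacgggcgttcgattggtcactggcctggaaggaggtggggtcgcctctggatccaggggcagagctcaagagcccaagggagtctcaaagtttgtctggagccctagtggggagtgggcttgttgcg

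Jchain promoter, chr5:88527848-88528147, minus strand: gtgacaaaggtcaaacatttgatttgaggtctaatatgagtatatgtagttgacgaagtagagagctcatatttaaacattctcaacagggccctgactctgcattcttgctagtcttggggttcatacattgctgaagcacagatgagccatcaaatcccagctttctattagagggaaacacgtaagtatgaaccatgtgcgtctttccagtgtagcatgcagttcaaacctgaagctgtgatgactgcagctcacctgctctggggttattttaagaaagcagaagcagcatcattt

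Jchain, Mzb1, Derl3, Tnfrsf17 and the heavy chain locus row were higher under the lymph node label. The 33 libraries were scaled together for this comparison, because the deposited values of the labels were scaled separately. Jchain, which encodes the chain that joins IgM and IgA into polymers, stood at 9811 ± 4793 in untreated libraries labelled spleen (SD, n = 5) and 46239.7 ± 1523 in those labelled lymph node (SD, n = 3), a log2 difference of 2.41 (95% interval 1.71 to 3.11, limma adjusted p = 4.2e-07). Mzb1, a chaperone cofactor of immunoglobulin assembly, stood at 2132 ± 488 in untreated libraries labelled spleen (SD, n = 5) and 9507 ± 325 in those labelled lymph node (SD, n = 3), a log2 difference of 2.19 (95% interval 1.81 to 2.56, limma adjusted p = 1.7e-11). Derl3, which takes part in moving misfolded proteins out of the endoplasmic reticulum, differed by 1.69 (95% interval 1.08 to 2.31, limma adjusted p = 1.5e-05) and Tnfrsf17, the receptor BCMA through which plasma cells receive survival signals, by 1.17 (95% interval 0.50 to 1.85, limma adjusted p = 0.00278). The heavy chain locus row differed by 1.13 (95% interval 0.72 to 1.53, limma adjusted p = 1.2e-05). For these 5 rows no library of either label, treated or not, reached into the range of the other label. The same held for Creb3l2, making 6 of the 10, against 30.7% of all genes. Over all libraries Jchain ranged from 3382 to 16311 in spleen-labelled libraries, and the 13 others held 37815 to 113027. Tnfrsf17 ranged from 26.1 to 88.1 and, in the 13 others, from 104 to 260.1.

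Of the transcription factors, Xbp1 was higher under the lymph node label, and Creb3l2 and Prdm1 were lower. Creb3l2, a membrane-bound factor that is cleaved to act on secretory genes, stood at 452 ± 73.0 in untreated libraries labelled spleen (SD, n = 5) and 109.9 ± 14.1 in those labelled lymph node (SD, n = 3), so it was 4.11 times higher under the spleen label, with a log2 difference of -2.02 (95% interval -2.40 to -1.65, limma adjusted p = 7.4e-11) and no overlap of any library. Lymph node-labelled libraries were lower in Prdm1, by a log2 difference of -0.39 (95% interval -0.72 to -0.058, limma adjusted p = 0.0372), and higher in Xbp1, by 0.30 (95% interval 0.048 to 0.55, limma adjusted p = 0.0346). Irf4 differed by -0.10 (95% interval -0.34 to 0.13, limma adjusted p = 0.435) and Sdc1, the surface proteoglycan syndecan by which plasma cells are sorted, by -0.56 (95% interval -1.09 to -0.027, limma adjusted p = 0.0611), and neither passed the test. In all, 8 of the 10 genes passed, against 64.0% of the 18581 genes tested, and untreated groups did not overlap for 7 of 10, against 59.8%, so a difference between the labels was common in the table as a whole. Of 39 other genes of the secretory pathway and unfolded protein response, 14 were higher under the lymph node label and 8 lower, with a median log2 difference of 0.12 against 0.0061 over all genes. Prdm1 lost its call with TMM scaling, without a filter and on the values as deposited (limma adjusted p = 0.0504, 0.0579 and 0.182), and Xbp1 without a filter (0.0602). Sdc1 passed with edgeR (adjusted p = 0.0303), with library weights (0.00333) and without untreated replicate 1 or 3 labelled spleen (0.0181 and 0.0338). The call for Prdm1 was also lost without untreated replicate 1 or 3 labelled lymph node or replicate 4 labelled spleen (adjusted p = 0.0834 to 0.158), and that for Xbp1 on leaving out any of the 3 untreated libraries labelled lymph node alone, or replicate 1 or 5 labelled spleen (adjusted p = 0.0537 to 0.103). Summed B cell markers also differed, at 65848 to 88127 in untreated libraries labelled spleen and 145488 to 152217 in those labelled lymph node, and their part in these differences was not tested.

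**Figure D1:**
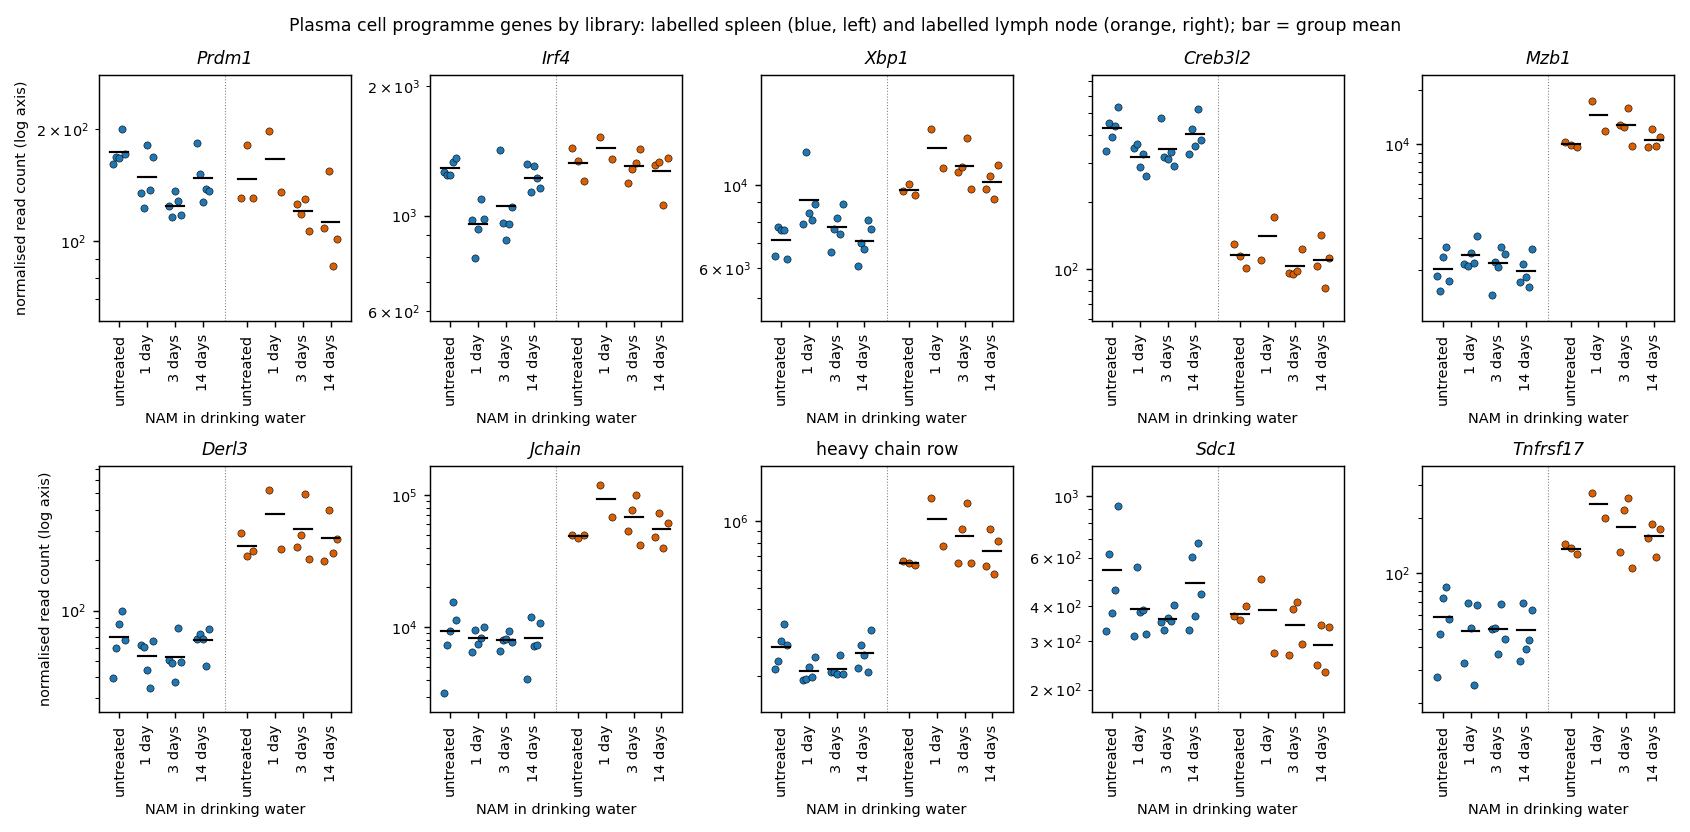
Normalised read count (log axis, as deposited, each label scaled on its own) of the 10 plasma cell genes in each of 33 libraries, by group, with spleen-labelled libraries in blue, lymph node-labelled libraries in orange and a bar at the group mean. Jchain, Mzb1, Derl3, Tnfrsf17 and the heavy chain row lie higher under the lymph node label in every library and Creb3l2 lies lower, while at 1 day under the spleen label the 5 Irf4 values lie below, and the 5 Xbp1 values above, all untreated ones.

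Under the spleen label Irf4 fell and Xbp1 rose after 1 day, Prdm1 fell after 3 days, and no gene of the list passed the test after 14 days. Irf4 read 1266, 1243, 1246, 1329.7 and 1362 in the untreated libraries and 978, 797, 932, 1096 and 983 after 1 day. Every library at 1 day lay below every untreated one. The means were 1289 ± 53.8 and 957 ± 108 normalised reads (SD, n = 5 each), a fall of 1.35-fold, or -0.44 (95% interval -0.65 to -0.22, limma adjusted p = 0.00754) on the log2 scale. Leaving out any of the 10 libraries of this comparison kept the call, with adjusted p between 0.00758 and 0.0214 in limma. After 3 days Irf4 read 1419.6, 961, 880.1, 957 and 1049.7, with replicate 1 above every untreated library and the other 4 below them. The difference was -0.31 (95% interval -0.53 to -0.10, limma adjusted p = 0.0767) with replicate 1 and -0.42 (limma adjusted p = 0.00117) without it. After 14 days the values were 1316, 1133, 1301, 1221 and 1162, overlapping the untreated range, and the difference was -0.073 (95% interval -0.29 to 0.14, limma adjusted p = 1).

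Xbp1 read 6472, 7758, 7606, 7577 and 6369 in untreated libraries labelled spleen and 7875, 12232, 8422, 8058 and 8926 after 1 day. All 5 libraries at 1 day lay above all untreated ones, and replicate 2 stood far above the rest. The difference was 0.33 (95% interval 0.10 to 0.57, limma adjusted p = 0.0463), a 1.26-fold rise. Without replicate 2 at 1 day it was 0.22 with a limma adjusted p of 0.120. That library also had the highest summed adipocyte markers of the label, 450103 against 31901 to 229817 in the other 19, and the highest summed epithelial markers, 17338 against 1140.4 to 11894, and their part in the result was not tested. With quantile normalisation and with library weights the call for Xbp1 was lost (limma adjusted p = 0.0830 and 0.0865). It was also lost, with limma adjusted p of 0.0527 to 0.109, without 1 day replicate 3 or 5 or without untreated replicate 1, 3, 4 or 5. Xbp1 differed by 0.11 (95% interval -0.12 to 0.35, limma adjusted p = 0.599) after 3 days and by -0.011 (95% interval -0.24 to 0.22, limma adjusted p = 1) after 14 days.

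Prdm1 read 161, 168, 168, 200.1 and 171 in untreated libraries labelled spleen, 135, 123, 181, 137 and 169 after 1 day, 125, 116, 137, 128 and 117 after 3 days and 184, 152, 127, 138 and 137 after 14 days. The 3-day libraries all lay below the untreated ones, while the ranges at 1 and 14 days overlapped theirs. The 3-day difference was -0.47 (95% interval -0.73 to -0.22, limma adjusted p = 0.0292), a 1.39-fold fall. Its size held between -0.51 and -0.42 when single libraries were left out, but the call was lost without 3-day replicate 2, 3, 4 or 5 or untreated replicate 2, 4 or 5 (limma adjusted p = 0.0532 to 0.0884). Creb3l2 read 341, 451, 393, 437 and 534 untreated and 350.3, 363, 288, 328 and 262 after 1 day, with 3 of 5 treated libraries below all untreated ones. Its difference of -0.43 (95% interval -0.74 to -0.12, limma adjusted p = 0.0513) just missed the threshold, and it passed with DESeq2 (adjusted p = 0.0340) and not with edgeR (adjusted p = 0.0534). In all, 2 of the 10 genes passed at 1 day against 16.6% of the 18243 genes tested, and 1 of 10 at 3 days against 5.55%, so the share of the list was near that of all genes. Groups did not overlap for 2 of 10 at 1 day and 1 of 10 at 3 days, against 11.9% and 5.06% of all genes, and for 0 of 10 at 14 days, against 0.548%. At 14 days 0 of 10 passed with limma, edgeR or DESeq2, which called 0.0%, 0.0% and 0.00548% of all genes, and 0 of 10 had an unadjusted p under 0.05, against 2.80% of all genes. At 1 day edgeR called the same 2 genes (16.3% of all genes) and DESeq2 called 4, adding Creb3l2 and the heavy chain locus row (18.5% of all genes). With only the 2 groups in the fit 1 passed at 1 day (12% of all genes) and 0 at 3 days (0.767%), and with library weights 5 passed at 3 days (25.9%). By the rule of an unadjusted p of at most 0.05 and a 1.5-fold change 0 passed at 1 day (8.21% of all genes) and 0 at 3 days (3.4%).

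Neither immunoglobulin row of the list passed the unweighted limma test under the spleen label. Jchain read 3199.8, 7333, 9392, 15652 and 11298 in untreated libraries labelled spleen, a spread from lowest to highest wider than that of any treated group of this label, and 6539, 9569.5, 7448, 8244 and 9987 after 1 day. The treated values lay inside the untreated range, and the difference was -0.0045 (95% interval -0.66 to 0.65, limma adjusted p = 0.994) at 1 day, -0.063 (95% interval -0.72 to 0.59, limma adjusted p = 0.936) at 3 days and -0.10 (95% interval -0.75 to 0.56, limma adjusted p = 1) at 14 days. The heavy chain locus row read 216530.2, 233433, 287689.7, 344175 and 277389 untreated, 192811, 195216, 221228, 198055 and 245257 after 1 day and 209169, 208719.9, 205277, 249971 and 203776 after 3 days. Treated libraries clustered at or under the lower end of the untreated range, with 3 of 5 below it at 1 day and 4 of 5 at 3 days. The differences were -0.36 (95% interval -0.66 to -0.048, limma adjusted p = 0.105) and -0.32 (95% interval -0.63 to -0.013, limma adjusted p = 0.207), and -0.093 (95% interval -0.40 to 0.22, limma adjusted p = 1) at 14 days, and none passed in unweighted limma. The row passed with DESeq2 at 1 day (adjusted p = 0.0258, 18.5% of all genes called). It also passed with library weights at 3 days (limma adjusted p = 0.0409, 25.9% of all genes called). Quantile normalisation, which sets a value by its rank within the library (here 4 to 10 among all rows), gave 0.11 at 1 day and 0.059 at 3 days for this row of Ighm, and the other settings with every library kept gave values below 0 at both times.

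Of the proteins of the endoplasmic reticulum, Mzb1 ranged from 1532 to 2684 untreated and 2109 to 3093 after 1 day under the spleen label, and its difference of 0.26 (95% interval -0.10 to 0.62, limma adjusted p = 0.321) lay within the spread between libraries. Derl3 was scarce. It ranged from 39.8 to 99.4 in untreated libraries and from 34.7 to 65.7, 37.7 to 79.3 and 46.6 to 78.2 after 1, 3 and 14 days, and the groups overlapped throughout. Tnfrsf17 was scarcer still, at 27.7 to 84.5 untreated and 25.0 to 69.2 after 1 day, with a difference of -0.24 (95% interval -0.90 to 0.41, limma adjusted p = 0.640). With single libraries left out the difference of Tnfrsf17 ran from -0.48 to -0.033. Sdc1 read 326, 618, 378, 457 and 921 untreated, a range that held the values of all 5 libraries at 3 days (351, 329.9, 363, 354 and 406), and the 3-day difference was -0.48 (95% interval -0.98 to 0.016, limma adjusted p = 0.246). This difference ran from -0.64 to -0.26 when single libraries were left out. It passed with library weights (limma adjusted p = 0.0192, 25.9% of all genes called). Over the list the median log2 difference under this label was -0.30 at 1 day, -0.32 at 3 days and -0.094 at 14 days, beside 0.0054, 0.00066 and 0.0032 over all genes tested. At 14 days all 10 differences were below 0, from -0.24 to -0.011.

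**Figure D2:**
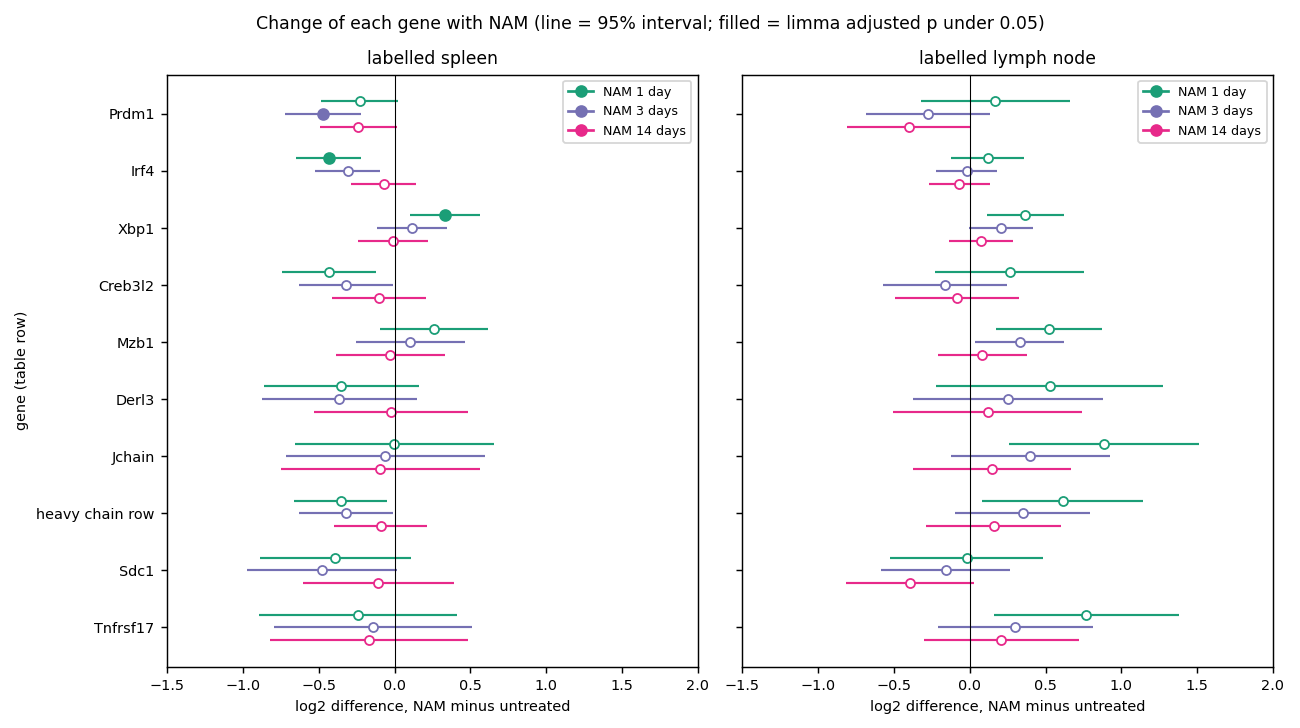
Log2 difference of NAM minus untreated for the 10 plasma cell genes at 1, 3 and 14 days, in libraries labelled spleen (left) and lymph node (right), with lines for 95% intervals and filled points for a limma adjusted p under 0.05. Filled points are Irf4 and Xbp1 at 1 day and Prdm1 at 3 days under the spleen label, and the widest intervals under the lymph node label are those of 1 day, which has 2 libraries.

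With the lymph node label, Jchain, the heavy chain locus row, Tnfrsf17, Mzb1 and Xbp1 stood higher in both 1-day libraries than in any untreated one, but no gene of the list passed the test at any time. Jchain read 49619, 46891 and 49445 untreated and 118233 and 68336 at 1 day. The untreated libraries lay close together and the 2 treated ones far apart. The difference was 0.89 (95% interval 0.26 to 1.51, limma adjusted p = 0.164). The heavy chain locus row read 660288, 650771 and 631561 untreated and 1268033 and 772234 at 1 day, a difference of 0.61 (95% interval 0.079 to 1.14, limma adjusted p = 0.262). Tnfrsf17 read 144, 137 and 128 and then 272 and 199, a difference of 0.77 (95% interval 0.16 to 1.38, limma adjusted p = 0.219). Mzb1 read 10335, 9961 and 9711 and then 17472 and 11797, a difference of 0.52 (95% interval 0.17 to 0.87, limma adjusted p = 0.144). Xbp1 read 9633, 10068 and 9385 and then 14084 and 11089, a difference of 0.37 (95% interval 0.11 to 0.62, limma adjusted p = 0.154). In each of these rows replicate 1 at 1 day held the highest value of the label. Groups did not overlap for these 5 of the 10 genes and for 32.6% of all 18215 genes tested. The same 5 had an unadjusted p under 0.05, as did 14.97% of all genes, while 0 of the 10 passed after adjustment with limma, edgeR or DESeq2. These tools called 1.21%, 1.22% and 2.96% of all genes.

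With 2 libraries at 1 day, leaving out either one moves these differences, in opposite directions. Replicate 1 at 1 day held transcripts of the exocrine pancreas. Of 11 acinar markers, 10 were highest in it. Cela2a, an elastase, stood at 22441 normalised reads where the other libraries of the label held at most 1.77. The protease precursor Ctrb1 stood at 19759 and the lipase Pnlip at 21376, where all others of the label were at 0, and the amylase Amy2a5 was at 0 in it too. The summed markers were 126926 in it and at most 1270.3 in the other 12. Without it the difference of Jchain was 0.49 in place of 0.89, and that of the heavy chain locus row (Ighm) was 0.25. Those of Tnfrsf17, Mzb1 and Xbp1 were 0.55, 0.24 and 0.19, and that of Derl3 was -0.057 in place of 0.53. Without replicate 2 instead, the differences of Jchain, the heavy chain locus row (Ighm) and Tnfrsf17 were 1.28, 0.97 and 0.99. Those of Mzb1, Xbp1 and Derl3 were 0.81, 0.54 and 1.11. Each of these rests on a lone treated library that is assumed to vary like the other groups. The part of the pancreatic transcripts in the result was not tested. In the fit of only the 2 groups compared, Jchain was the 1 gene of 10 to pass (limma adjusted p = 0.0281), against 1.59% of all genes. By the rule of an unadjusted p of at most 0.05 and a 1.5-fold change, Jchain, Tnfrsf17 and the heavy chain locus row passed, 3 of 10 against 4.91%.

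At 3 days the lymph node label showed the same rows spread between libraries. Jchain read 53093, 77110.2, 99729 and 41497 and the heavy chain locus row 648596, 922949, 1201225 and 644541. Replicate 3 was the highest in both and replicate 4 the lowest in both, the latter below the untreated range for Jchain. Jchain differed from untreated by 0.40 (95% interval -0.12 to 0.92, limma adjusted p = 0.474), the heavy chain locus row by 0.35 (95% interval -0.10 to 0.80, limma adjusted p = 0.459) and Mzb1 by 0.33 (95% interval 0.036 to 0.62, limma adjusted p = 0.281). Without 3-day replicate 3 these differences were 0.19, 0.17 (Ighm) and 0.21, and without replicate 4 that of Jchain was 0.61. At 14 days Jchain read 47816, 72288, 39913 and 60898 and differed by 0.15 (95% interval -0.38 to 0.67, limma adjusted p = 0.876). With single libraries left out this ran from 0.0049 to 0.29. Prdm1 read 131, 181 and 130.4 untreated, 126, 119, 130.2 and 107 at 3 days and 109, 155, 85.8 and 102 at 14 days. Its differences were -0.28 (95% interval -0.69 to 0.14, limma adjusted p = 0.537) and -0.40 (95% interval -0.81 to 0.011, limma adjusted p = 0.438), and the 3-day libraries all lay below the untreated ones. Sdc1 at 14 days read 246, 344, 232 and 338, below all untreated values (369, 357 and 402), with a difference of -0.40 (95% interval -0.82 to 0.028, limma adjusted p = 0.467). Irf4 ranged from 1204 to 1438 untreated and 1191 to 1427 at 3 days, a difference of -0.020 (95% interval -0.22 to 0.18, limma adjusted p = 0.948). Groups did not overlap for 1 of 10 genes at 3 days and 1 of 10 at 14 days, against 15.3% and 11.5% of all genes. In this list 0 of 10 passed with limma, edgeR or DESeq2 at either time. Among all genes these tools called 1.24%, 1.13% and 2.71% at 3 days and 0.791%, 0.878% and 2.09% at 14 days. An unadjusted p under 0.05 was reached by 1 gene of the list at 3 days and by 0 at 14 days, against 14.8% and 11.8% of all genes. Creb3l2, the factor that was scarce under this label, ranged from 102 to 131 untreated and from 111 to 172, 95.5 to 123 and 82.3 to 143 after 1, 3 and 14 days, and the groups overlapped. Derl3 ranged from 211 to 292 untreated and from 232 to 522, 202 to 494 and 198 to 396, with overlap as well. Over the list the median log2 difference under this label was 0.44 at 1 day, 0.23 at 3 days and 0.076 at 14 days. Over all genes tested it was -0.00048, 0.00046 and 0.0023. The 1-day values rest on 2 libraries, of which replicate 1 held pancreatic transcripts.

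Whether the response differed between the labels was tested directly. For Irf4 at 1 day the lymph node response minus the spleen response, by label, was 0.57 (95% interval 0.22 to 0.92, limma adjusted p = 0.0812) on the log2 scale, for the heavy chain locus row 0.99 (95% interval 0.37 to 1.60, limma adjusted p = 0.0838) and for Creb3l2 0.71 (95% interval 0.14 to 1.28, limma adjusted p = 0.183). The 1-day lymph node arm of this test held 2 libraries, of which replicate 1 carried pancreatic transcripts. Without replicate 1 the difference in response was 0.63 for the heavy chain locus row (Ighm) and 1.03 for Creb3l2, and without replicate 2 it was 1.34 and 0.40. For Xbp1, which stood higher at 1 day under both labels, the difference with every library kept was 0.052 (95% interval -0.33 to 0.44, limma adjusted p = 0.929). Of the 10 genes 0 passed at 1, 3 and 14 days with limma and with edgeR, while 4, 1 and 0 had an unadjusted p under 0.05 in limma, against 16.3%, 12.6% and 4.98% of all genes. Among the 18581 genes, limma called 1.46%, 0.63% and 0.124%, and edgeR 1.45%, 0.716% and 0.113%. With library weights Irf4 and the heavy chain locus row passed at 1 day (4.34% of all genes) and at 3 days (9.82%), Irf4 with limma adjusted p of 0.0323 and 0.0300, so the call for Irf4 depended on the weighting of libraries.

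Across libraries, transcripts of secretion varied with Jchain. Over the 13 libraries labelled lymph node, the heavy chain locus row followed Jchain most closely (r = 0.98, permutation p = 2.0e-05, adjusted p = 1.8e-04, rho = 0.92, permutation p = 2.0e-05, adjusted p = 3.6e-04). Next came Tnfrsf17 (r = 0.96, permutation p = 1.0e-05, adjusted p = 1.8e-04, rho = 0.92, permutation p = 5.0e-05, adjusted p = 4.5e-04) and Xbp1 (r = 0.94, permutation p = 3.0e-05, adjusted p = 1.8e-04, rho = 0.86, permutation p = 3.6e-04, adjusted p = 0.00108). Mzb1 (r = 0.94, permutation p = 6.0e-05, adjusted p = 2.2e-04, rho = 0.86, permutation p = 3.1e-04, adjusted p = 0.00108) and Derl3 (r = 0.89, permutation p = 9.0e-05, adjusted p = 2.7e-04, rho = 0.87, permutation p = 2.6e-04, adjusted p = 0.00108) also passed. Leaving out the pair of libraries with the most extreme Jchain gave r of 0.94, 0.93, 0.83, 0.81 and 0.69. Sdc1 had r = 0.69 (permutation p = 0.00896, adjusted p = 0.0202) and rho = 0.62 (permutation p = 0.0269, adjusted p = 0.0537). Its r was 0.40 without those libraries. Prdm1 (r = 0.55), Irf4 (r = 0.46) and Creb3l2 (r = 0.13) did not pass, with adjusted permutation p of 0.0846, 0.153 and 0.726. The levels were log2(normalised read count + 1), the p-values come from 100000 two-sided permutations, which can give no p under 1.0e-05, and the adjustment covers 18 relations over both labels. With each group's mean taken out, r was 0.97 for the heavy chain locus row, 0.95 for Tnfrsf17, 0.91 for Xbp1, 0.91 for Mzb1, 0.91 for Derl3 and 0.90 for Sdc1.

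Under the spleen label, over 20 libraries, Tnfrsf17 followed Jchain (r = 0.76, permutation p = 6.0e-05, adjusted p = 2.2e-04, rho = 0.77, permutation p = 1.8e-04, adjusted p = 0.00108). So did the heavy chain locus row (r = 0.60, permutation p = 0.00500, adjusted p = 0.0129, rho = 0.52, permutation p = 0.0207, adjusted p = 0.0465), whose r was 0.79 without the 2 farthest libraries. For Derl3 (r = 0.51, permutation p = 0.0200, adjusted p = 0.0399, rho = 0.46, permutation p = 0.0410, adjusted p = 0.0671) and Mzb1 (r = 0.49, permutation p = 0.0278, adjusted p = 0.0501, rho = 0.55, permutation p = 0.0129, adjusted p = 0.0333) the 2 measures fell on different sides of the threshold. Xbp1 did not follow Jchain here (r = 0.33, adjusted permutation p = 0.202), and neither did Irf4 (r = -0.14, adjusted permutation p = 0.617) or Prdm1 (r = 0.051, adjusted permutation p = 0.833). Without the 2 farthest libraries their r were -0.039, 0.15 and 0.52, given with no test. Sdc1 (r = 0.44, adjusted permutation p = 0.0846, rho = 0.49, adjusted permutation p = 0.0537) and Creb3l2 (r = 0.23, adjusted permutation p = 0.389) did not pass. The difference between the labels in these correlations was not tested. All rows of a library share its size factor and its RNA.

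**Figure D3:**
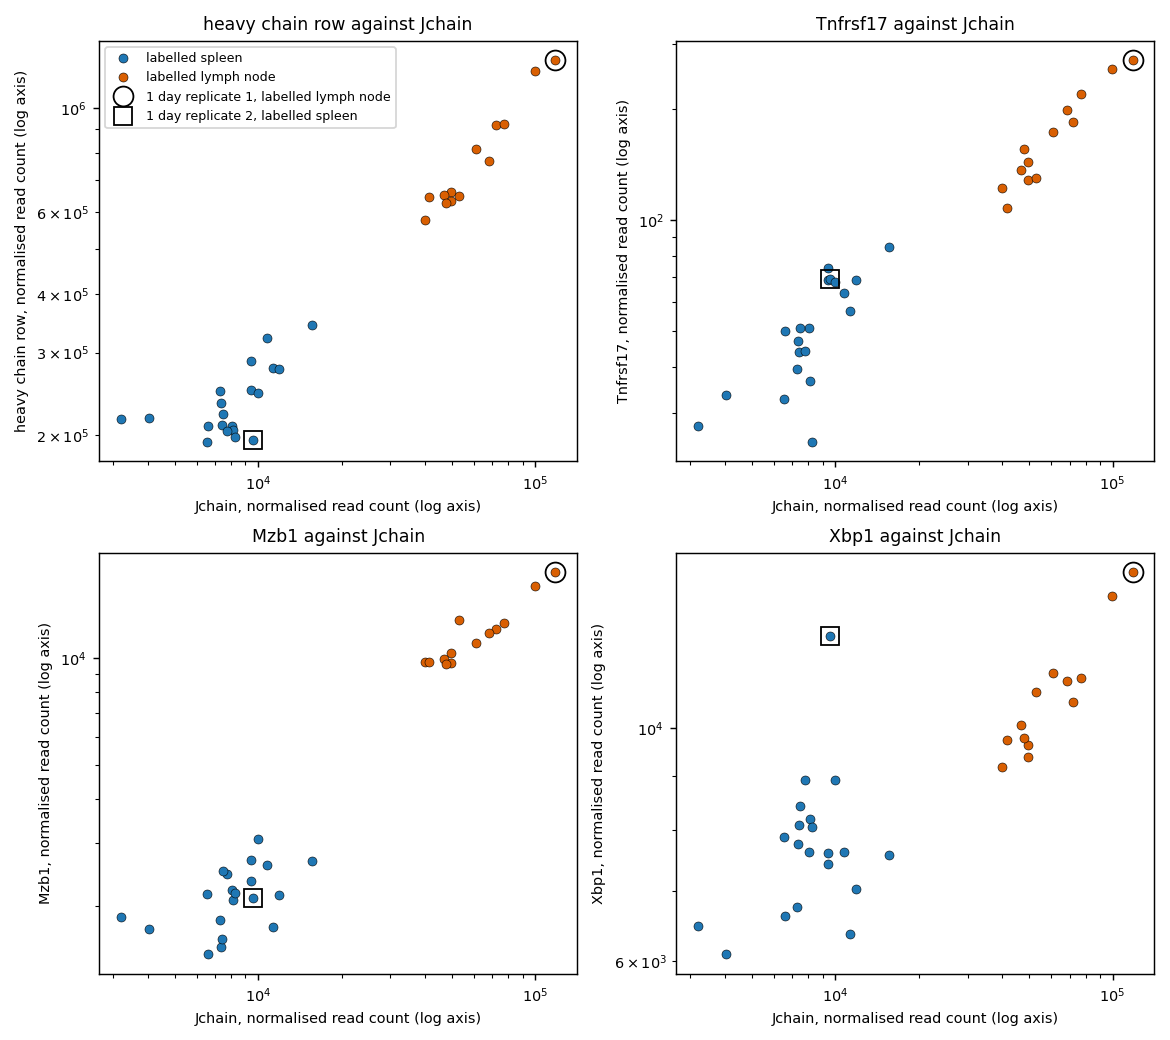
Normalised read count of the heavy chain row, Tnfrsf17, Mzb1 and Xbp1 (vertical, log axis) against Jchain (horizontal, log axis) in each library, spleen-labelled in blue and lymph node-labelled in orange. The 13 orange points form a rising line in all 4 panels with the circled library, 1 day replicate 1, at its upper end, and the library marked by a square, 1 day replicate 2 of the spleen label, lies above the other 19 in Xbp1 only.

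Sdc1 is also made by epithelium, and Xbp1 by many secretory and metabolic cells, so the members were set against summed markers of other cells in a family of 60 relations that was chosen after the data were seen. Under the spleen label the 10 epithelial markers summed to 1140.4 to 8199 in untreated libraries, and to 3219 to 17338, 2571 to 6233 and 1276 to 11894 after 1, 3 and 14 days. Of the milk protein markers, Wap was at 0 in 18 and Csn1s1 in 17 of the 20 libraries, while Csn2 at 2.02 to 31.3 and Csn3 at 68.2 to 1151 had reads in all 20. Sdc1 varied with this sum by rank and did not pass by Pearson's r (r = 0.67, permutation p = 0.00145, adjusted p = 0.0870, rho = 0.77, permutation p = 1.7e-04, adjusted p = 0.0102), with r = 0.70 without the 2 farthest libraries and 0.90 after each group's mean was taken out. The highest Sdc1 value of the label, 921 in untreated replicate 5, came with an epithelial sum of 8199. Xbp1 and the summed adipocyte markers gave r = 0.63, permutation p = 0.00323, adjusted p = 0.0969, rho = 0.52, permutation p = 0.0211, adjusted p = 0.259, and r dropped to 0.38 without the 2 farthest libraries. With the summed B cell markers Xbp1 gave r = -0.56, permutation p = 0.00888, adjusted p = 0.178, rho = -0.47, permutation p = 0.0402, adjusted p = 0.268, and with the epithelial sum r = 0.53, permutation p = 0.0162, adjusted p = 0.188, rho = 0.44, permutation p = 0.0549, adjusted p = 0.330. Without the 2 farthest libraries these r were -0.40 and 0.50. After each group's mean was taken out, Creb3l2 had r = -0.71 with the B cell sum, 0.65 with the epithelial sum and 0.64 with the adipocyte sum, given with no test. The heavy chain locus row and the summed B cell markers gave r = 0.50, permutation p = 0.0249, adjusted p = 0.195, rho = 0.67, permutation p = 0.00161, adjusted p = 0.0483. For this relation r was 0.32 without the 2 farthest libraries and 0.28 after each group's mean was taken out. Of the 60 relations 0 passed by Pearson's r after adjustment and 2 by rank, this one and that of Sdc1. In the lymph node-labelled libraries Krt5, Csn1s1 and Wap were at 0 in all 13 libraries, and the epithelial sum stayed between 391 and 557. The part of these cells in the levels of Sdc1 and Xbp1 was not tested further.

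**Figure D4:**
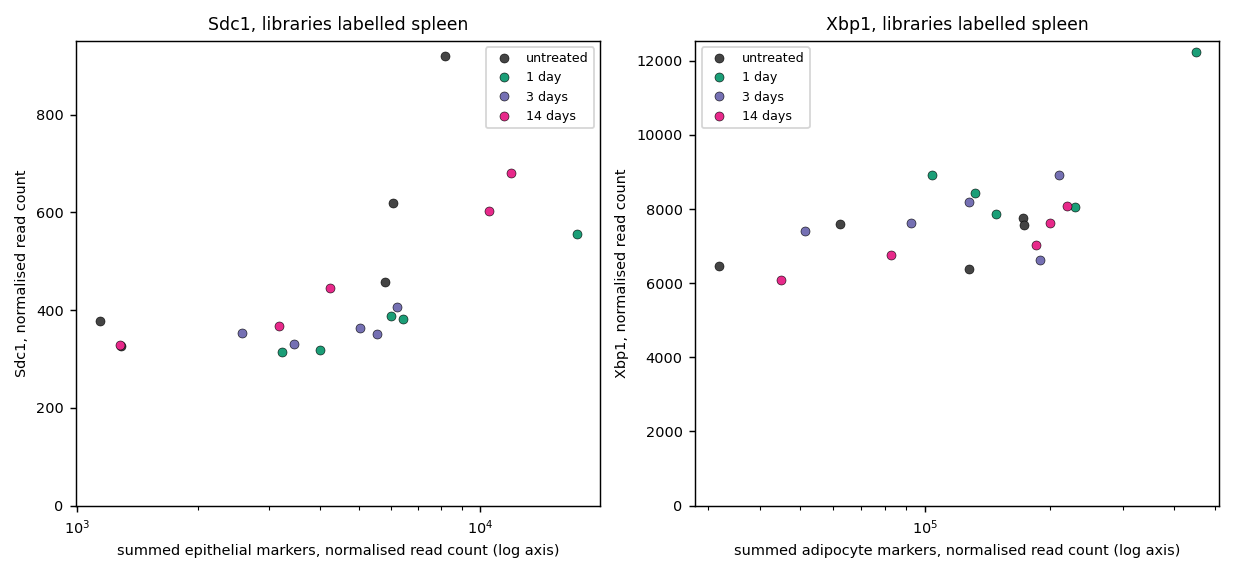
Normalised read count of Sdc1 against summed epithelial markers (left) and of Xbp1 against summed adipocyte markers (right; horizontal axes are log) in the 20 libraries labelled spleen, coloured by duration of NAM. Sdc1 reaches 921 at an epithelial sum of 8199, and the Xbp1 value of 12232 stands at the largest adipocyte sum.

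Other genes of the pathway moved in small numbers. Of 39 tested genes of the secretory pathway and unfolded protein response, 4 rose and 4 fell at 1 day under the spleen label (16.6% of all genes changed), and the median log2 difference was 0.036. Hspa5, the main chaperone of the endoplasmic reticulum, rose by 0.44 (limma adjusted p = 0.0131) on the log2 scale and Derl1, a relative of Derl3, by 0.48 (limma adjusted p = 0.00168). Syvn1, the ubiquitin ligase of the same export route, fell by 0.37 (limma adjusted p = 0.00154) and Fkbp2, a prolyl isomerase, by 0.53 (limma adjusted p = 0.00831). The rows of Syvn1, and of Pdia4 below, each carry 2 gene symbols, so their changes cannot be assigned to those genes alone. At 3 days Derl1 rose by 0.32 (limma adjusted p = 0.0391) and Syvn1 fell by 0.34 (limma adjusted p = 0.0114), the only 2 of the 39 to pass (5.55% of all genes), and at 14 days 0 passed. Without 3-day replicate 1, 4 rose and 6 fell at 3 days, while 0 rose and 1 fell when any other library alone was left out. The shares of all genes called with single libraries left out are not given here, so counts from such fits cannot be set against all genes. With the lymph node label 5 of the 39 rose and 0 fell at 1 day, where 1.21% of all genes were called. Herpud1, a stress-induced factor of protein degradation, rose by 0.46 (limma adjusted p = 0.00933) and the chaperone Hsp90b1 by 0.52 (limma adjusted p = 0.0297). The disulfide isomerase Pdia4 rose by 0.45 (limma adjusted p = 0.0297) and Hspa5 by 0.35 (limma adjusted p = 0.0486). Of the 39, 0 passed without replicate 1 at 1 day, the library with pancreatic transcripts, and 1 passed when any of the other 4 libraries of that comparison alone was left out. At 3 and 14 days 0 of 39 passed.

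Cxcr4, the chemokine receptor that retains plasma cells in bone marrow and is carried by many leukocytes, led the list of survival and homing genes. It rose under the lymph node label by 1.56 (limma adjusted p = 7.1e-05) at 1 day, 0.76 (limma adjusted p = 0.00534) at 3 days and 0.88 (limma adjusted p = 0.00376) at 14 days. It was the 1 gene of 24 tested to pass at 1 and at 14 days, where 1.21% and 0.791% of all genes were called, and Ly6c2 also rose at 3 days (1.24% of all genes), by 0.39 (limma adjusted p = 0.0369). The 3-day count of 2 was 1 without 3-day replicate 3 or untreated replicate 1 or 3, and 0 without untreated replicate 2. Slamf7, a surface receptor of plasma and NK cells, differed at 1 day by 0.43 (limma adjusted p = 0.0533) and did not pass. With the spleen label 3 of 23 fell at 1 day, no larger a share than the 16.6% of all genes called. Pou2af1, the B cell coactivator of octamer sites, fell by 0.44 (limma adjusted p = 0.0116), Glcci1 by 0.40 (limma adjusted p = 0.0149) and Tnfrsf13c, the BAFF receptor, by 0.41 (limma adjusted p = 0.0393). The row of Glcci1 carries 2 gene symbols, so its change cannot be assigned to that gene alone. Pou2af1 was the 1 gene of those 23 to pass at 3 days (5.55% of all genes), where it fell by 0.43 (limma adjusted p = 0.0300). Tnfrsf13b, the receptor TACI, differed by -0.20 (limma adjusted p = 0.192) under the spleen label and -0.068 (limma adjusted p = 0.735) under the lymph node label at 1 day. Of 15 genes of B cell identity, 6 fell and 0 rose at 1 day under the spleen label, where 16.6% of all genes were called. Pax5, the master factor of the lineage, fell by 0.46 (limma adjusted p = 0.0115), Spib by 0.43 (limma adjusted p = 0.0165) and Ebf1 by 0.42 (limma adjusted p = 0.0172). The count was 3 without 1 day replicate 2 or untreated replicate 3 or 4, and 2 without untreated replicate 5. At 3 days 2 of the 15 fell, 4 without 3-day replicate 1 and 0 when any other library alone was left out, while 5.55% of all genes were called with every library kept. As above, counts with a library left out have no share of all genes beside them and cannot be set against it. With the lymph node label 0 of 15 passed, with Pax5 at -0.32 (limma adjusted p = 0.310), Bach2 at -0.49 (limma adjusted p = 0.104) and Cd83 at 0.41 (limma adjusted p = 0.109) at 1 day. Pax5 and Bach2 each have 2 rows, and only the row with the higher mean over all libraries was read. Summed B cell markers were 65848 to 88127 untreated and 51937 to 76660.5 at 1 day under the spleen label, and their part in these changes was not tested.

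The light chains were read from the rows that hold Igkc and the lambda constant genes, which were chosen after the data were seen. That with Igkc spans chr6:70215400-70726757 with 22 variable segments and the lambda row chr16:19061628-19260844 with 4 constant genes. The row with Igkc fell under the spleen label, by 0.65 (SE 0.14, limma adjusted p = 0.00386) at 1 day and 0.52 (SE 0.14, limma adjusted p = 0.0328) at 3 days on the log2 scale. The 1-day call held under all 12 other settings and without any 1 of the 10 libraries, and the 3-day call was lost without a filter, with only 2 groups (limma adjusted p = 0.0682 and 0.0600), by the 1.5-fold rule and on leaving out any 1 library other than 3-day or untreated replicate 1 (limma adjusted p = 0.0502 to 0.106). The row differed by 0.00070 (SE 0.14, limma adjusted p = 1) at 14 days. In libraries labelled lymph node its 1-day difference was 0.83 (SE 0.28, limma adjusted p = 0.165), and the 1-day responses differed by 1.497 (SE 0.31, limma adjusted p = 0.0151). Without 1-day replicate 1 labelled lymph node, the library with pancreatic transcripts, these were 0.36 (limma adjusted p = 0.691) and 1.02 (limma adjusted p = 0.173), so the difference in response no longer passed, and without replicate 2, the only other library of that group, they were 1.30 and 1.97. The lambda row differed by -0.43 (SE 0.19, limma adjusted p = 0.137) and 0.29 (SE 0.24, limma adjusted p = 0.611) at 1 day. Together the heavy chain, kappa and lambda rows took 1.01% to 1.71% of the reads of untreated libraries labelled spleen and 0.912% to 1.09% at 1 day, beside 2.73% to 2.86% and 3.39% to 5.09% under the lymph node label. Ighd, the 1 constant gene that also has a row of its own, differed by -0.17 (limma adjusted p = 0.627) and -0.37 (limma adjusted p = 0.313) at 1 day.

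The genes outside the list whose levels moved most like Jchain, by Pearson r of deviations from group means over 20 libraries labelled spleen, were Fkbp11 (0.89), Gm9895 (0.84), Eaf2 (0.82), Gm11536 (0.80) and Rasl2-9 (0.79). Over 13 libraries labelled lymph node they were Clec2g (0.99), Gstt3 (0.95), Slamf7 (0.95), Creld2 (0.93) and Fkbp11 (0.93). Fkbp11, a prolyl isomerase of the endoplasmic reticulum, was in both sets, and Slamf7 and Creld2 encode a plasma cell surface receptor and a protein of the stressed endoplasmic reticulum. For Xbp1 they were Glrx5 (0.94), Grpel1 (0.94), Mrpl12 (0.94), Ndufs3 (0.93) and Grhpr (0.92) under the spleen label, of which Glrx5, Grpel1, Mrpl12 and Ndufs3 encode mitochondrial proteins, and Fkbp11 (0.95), Gbp11 (0.93), Gm1604b (0.92), Creld2 (0.91) and Slamf7 (0.90) under the lymph node label. These are descriptions with no test, picked as the highest among 18243 and 18215 genes.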

How the data were processed

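RNA-seq of 33 libraries was analysed. Per the file headers, the labels and the study's methods, the authors aligned paired reads of 75 bases to mm10 (STAR 2.4.0 is named in the submitters' processing notes) and deposited, for each gene row, a read count divided by a DESeq2 size factor, a normalised signal on a linear scale. Strand use is not given in the sources used here. Dividing by each library's step returned whole reads for 100.0% of values within 0.01 of a step, and 71.4% to 76.1% of low values were even, so both mates of a pair were counted and reads are not independent fragments. Recomputed size factors matched the deposited ones under the spleen label only, so the labels had been scaled separately, and comparisons between them used the recovered reads scaled over all libraries by the median of ratios. Groups and replicate numbers came from sample titles, and 0 of 56 replicate pairs were identical.

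Within a label, log2(normalised count + 1) was tested with limma 3.58.1 (R 4.3.3) with an intensity trend and 4 groups in one fit, two-sided, after a filter on a mean of at least 10, with Benjamini-Hochberg adjustment over all genes and a threshold of 0.05. Alternatives were other pseudocounts, filters and scalings, library weights, 2 groups only, a replicate block, each library left out, a rule of unadjusted p and 1.5-fold change, and, on the recovered reads, DESeq2 1.42.0 and edgeR 4.0.16. Permutations used numpy 2.4.6. The scripts were tested on simulated data. All members are named, with up to 3 genes per list and label by smallest p plus Hspa5, Pax5, Igkc, Igha and Tnfrsf13b, and the 5 genes most like Jchain and Xbp1. The members and lists were chosen with earlier results of these data known.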

Additional observations from a re-analysis of the deposited data

Results flagged for a closer look

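Of 60 sets of 4 or 5 libraries (10 genes in 6 groups), 6 held a value far from the others of its group by Dixon's test, which flags about 1 set in 20 by chance. Under the spleen label these were Prdm1 in untreated replicate 4, at 200.1 where the others read 161 to 171, Xbp1 in 1 day replicate 2, at 12232 where the others read 7875 to 8926, Creb3l2 in 3 day replicate 1, at 477 where the others read 289.7 to 335, and the heavy chain locus row in 3 day replicate 4, at 249971 where the others read 203776 to 209169. Under the lymph node label they were Irf4 in 14 day replicate 3, at 1060.1 where the others read 1312 to 1363, and Creb3l2 in 3 day replicate 4, at 123 where the others read 95.5 to 98.3. The 3 day replicate 1 labelled spleen that held the high Creb3l2 also held the highest Irf4 of its group, 1419.6, and Xbp1 in 1 day replicate 2 stood beside the highest adipocyte sum of the label, 450103. The part of other cells in these values was not tested.

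The row with Igkc responded differently under the labels at 1 day, by a log2 difference of 1.497 in the joint limma fit (adjusted p = 0.0151). Without 1-day replicate 1 labelled lymph node it was 1.02 and did not pass (limma adjusted p = 0.173). Its share of reads was 0.254% to 0.390% untreated and 0.185% to 0.230% at 1 day under the spleen label, and 0.635% to 0.668% and 0.842% to 1.47% under the lymph node label, where 1 of the 2 treated libraries is the one with pancreatic transcripts.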

How the results depend on the processing

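Among the 10 genes, the fall of Irf4 at 1 day under the spleen label was called under every setting except the rule of a 1.5-fold change. Members called at 1 day under that label numbered 2, and 0 by the 1.5-fold rule, 1 without a filter, 1 with only the 2 groups in the fit, 3 with a mean count of at least 50, 4 with DESeq2 and 1 to 2 when single libraries were left out. Xbp1 lost its call by the 1.5-fold rule, without a filter, with only 2 groups, with quantile normalisation and with library weights, and under the last 2 Creb3l2 was called beside Irf4. At 3 days they numbered 1, and 0 by the 1.5-fold rule, with quantile normalisation or with only 2 groups, 5 with library weights, and 0 to 3 when single libraries were left out. Under the lymph node label at 1 day they numbered 0, and 3 by the 1.5-fold rule (Tnfrsf17, Jchain and the heavy chain locus row) and 1 with only 2 groups. Responses that differed between the labels numbered 0, and 2 at 1 day and 2 at 3 days with library weights, and 0 to 1 at 3 days when single libraries were left out, 1 being reached without 3-day replicate 1 labelled spleen. At 3 days under the spleen label the share of all genes called was 0.767% with only 2 groups and 25.9% with library weights. Shares without a filter, with a mean count of at least 50, with quantile normalisation and with single libraries left out are not given here. Counts under those settings therefore cannot be set against all genes. The causes were not tested. Further results passed the threshold in 23 alternatives and lost it in 32.

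Signs reversed in 11 cases with every library kept. Under the spleen label these were Jchain at 1 day with TMM scaling (0.014), the heavy chain locus row (Ighm) with quantile normalisation (0.11 at 1 day and 0.059 at 3 days), Xbp1 at 14 days with TMM (0.00072) and Mzb1 at 14 days with library weights (0.021). Sdc1 at 1 day under the lymph node label reversed with edgeR (0.048) and DESeq2 (0.043), and untreated Irf4 between labels on the values as deposited (0.038). The replicate block reversed the 14-day difference in response between labels for Irf4 (-0.028) and Creb3l2 (-0.031), as TMM did for Irf4 (-0.0042).

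Leaving out single libraries gave log2 ranges on both sides of 0 under the spleen label for Jchain (-0.35 to 0.23 at 1 day, -0.41 to 0.17 at 3 days, -0.44 to 0.14 at 14 days), Tnfrsf17 at 3 days (-0.38 to 0.017) and, at 14 days, Derl3 (-0.21 to 0.12), Mzb1 (-0.13 to 0.079), Sdc1 (-0.26 to 0.11) and Xbp1 (-0.058 to 0.044). Under the lymph node label they were Creb3l2 (-0.054 to 0.58 at 1 day, -0.22 to 0.044 at 14 days), Derl3 (-0.057 to 1.11, -0.0077 to 0.42 and -0.082 to 0.25 at 1, 3 and 14 days), Irf4 (-0.087 to 0.040 at 3 days, -0.14 to 0.015 at 14 days), Prdm1 at 1 day (-0.10 to 0.44) and Sdc1 at 1 day (-0.47 to 0.42). For the difference in response they were Mzb1 (-0.0027 to 0.56), Sdc1 (-0.055 to 0.83) and Xbp1 (-0.12 to 0.23) at 1 day, and Creb3l2 (-0.11 to 0.16), Derl3 (-0.046 to 0.33), Irf4 (-0.055 to 0.10) and Prdm1 (-0.31 to 0.0051) at 14 days.

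Within a label, replicate numbers gave no clear sign of pairing. Deviations of same-numbered libraries had a median correlation of -0.013 over 16 pairs under the lymph node label, 0 of them above 0.1, and of 0.035 over 30 pairs under the spleen label, 13 above 0.1. For differently numbered libraries the medians were 0.0067 over 46 pairs, 2 above 0.1, and -0.0079 over 120 pairs, 41 above 0.1. Pairing between the labels was not examined, and the test of the difference in response took all libraries as independent. With the replicate number as a block, members called numbered 2 at 1 day and 1 at 3 days under the spleen label and 0 otherwise. The block was not run for the untreated labels, since it lies within a label. Low reads limit Tnfrsf17 and Derl3 under the spleen label, and 2 libraries limit 1 day under the lymph node label.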
